A study of Mus musculus with 2 samples.

Results

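Sst-high MGE interneurons were the cells of the embryonic cortex that carried the transcripts of an interneuron from the medial ganglionic eminence (MGE) together with a clear somatostatin signal. Members were chosen by their own numbers of UMIs (unique molecular identifiers, barcodes that let each captured transcript be counted once): at least 5 of *Nxph1*, at least 5 of *Erbb4*, at least 1 of *Gad1* and *Gad2* together, at least 3 of *Sst* and at most 3 of *Neurod2* and *Neurod6* together. They numbered 381 of 22347 kept cells, 185 of 10879 (1.70%, exact binomial 95% interval 1.47 to 1.96) in embryo 4 and 196 of 11468 (1.71%, 1.48 to 1.96) in embryo 5. The series consists of scRNA-seq (10x Genomics, 3′ ends) of cortices dissected from 2 mouse embryos at embryonic day (E) 16.5, numbered 4 and 5, which come from an *Eomes*-Cre mouse line whose titles name it EoMltt3. Both have the genotype label WT and were control animals, and whether they carry the Cre allele or are littermates is not given in the sources used here. The background strain was C57BL/6J, and the labels also call the tissue brain hemispheres. Each cortex was dissociated with papain and gave 1 library. There is thus 1 condition and n = 2 embryos, and every comparison here is between groups of cells within these embryos. Since *Sst*, *Nxph1*, *Erbb4*, *Gad1*, *Gad2*, *Neurod2*, *Neurod6* and the mitochondrial genes chose the cells, their values are a description and were not tested.

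Somatostatin interneurons are GABAergic cells born in the MGE of the ventral forebrain, which travel tangentially into the cortex and later inhibit mostly the dendrites of other neurons. *Lhx6*, *Sox6* and *Satb1* encode transcription factors that act one after another in this lineage, and ERBB4 is the neuregulin receptor that these cells use on their way. The other large classes of embryonic forebrain GABAergic neurons come from the caudal (CGE) and the lateral ganglionic eminence (LGE), the former giving the *Adarb2* and *Prox1* interneurons of the cortex and the latter striatal and olfactory bulb neurons marked by *Meis2* and *Pbx3*.

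The gene that names the cells is short. *Sst* (ENSMUSG00000004366), protein-coding for the peptide somatostatin, lies on chromosome 16 from 23889573 to 23891342 (RefSeq, GRCm38.p6, the mm10 build that the submitters' notes name), on the minus strand. Its promoter carries the palindrome known as the cAMP response element, which was first described in this gene and is shown here for that reason, with the element in capitals, for chr16:23890874-23890903 on the minus strand, 5′ to 3′.
*Sst* promoter: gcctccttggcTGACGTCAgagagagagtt
The element began 48 bases before the transcript start that RefSeq gives for this window. That start is not the outer end of the gene span given above, so the printed stretch lies inside the span. Searched as TGACGTCA, which reads the same on both strands, it was found in 508 of 32851 mouse promoter windows of 250 bases (1.55%). The windows of *Npy*, *Cort*, *Prkcq*, *Grm7* and *Nebl*, which are described below, did not hold these letters.

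Embryo 4 had 12825 barcodes with 124318613 UMIs and embryo 5 had 12289 barcodes with 117679925 UMIs. The Sst-high cells had a median of 8878 and 7722.5 UMIs and of 3316 and 3090.5 detected genes, and their summed counts came to 1739180 and 1655033 UMIs. This was deeper per cell than the same gate without *Sst* (5980 and 6215) and shallower than excitatory-gated cells (11207 and 9790.5). The libraries shared 46 barcodes, of which 2 were Sst-high cells of embryo 4 and 0 were Sst-high cells of embryo 5. A doublet score, which marks a number of cells set beforehand by the size of the library, marked 13 and 8 of the Sst-high cells. These were 7.03% and 4.08% of them, beside 8.73% and 9.26% of all other kept cells. In 1 Sst-high cell of embryo 5, haemoglobin transcripts were 36.3% of the UMIs, and it held 5333 of the 6049 haemoglobin UMIs of that embryo's Sst-high cells.

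The genes of the label were found in these cells. Levels are CPM, the UMIs of a gene per 1000000 UMIs of the summed cells of an embryo. *Sst* was at 2194 and 2525 CPM in the Sst-high cells of embryos 4 and 5, which the rule fixed, and at 4.24 and 2.29 CPM in excitatory-gated cells. *Npy*, which encodes the co-released peptide neuropeptide Y, was at 591 and 753 CPM against 9.02 and 3.62 CPM in excitatory-gated cells. *Neto1*, an auxiliary subunit of kainate receptors that lies on chromosome 18 from 86394815 to 86506721, was at 737 and 863 CPM, and at 3.52 and 3.03 CPM in excitatory-gated cells. *Nxph1*, a secreted ligand of alpha-neurexins and a gate gene, was at 4633 and 5350 CPM. In cells of the same gate with 1 to 2 *Sst* UMIs, which are not members, it was at 5556 and 4795 CPM. It thus did not set the Sst-high cells apart within that gate. Among all genes with at least 50 CPM in these cells, *Sst*, *Npy*, *Neto1* and *Prkcq* stood furthest above all other kept cells, in that order, with the lower of the embryos' log2 ratios, taken after 1 CPM was added, at 7.32, 5.38, 5.34 and 4.90.

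Transcription factors of migrating MGE interneurons were present. *Lhx6* was at 248 and 276 CPM and was detected in 77.8% and 82.7% of the Sst-high cells, against 0.622% and 0.490% of radial glia-gated cells, which hold more UMIs per cell (median 11996 and 10743). *Sox6* was at 1571 and 1886 CPM, *Maf* at 496 and 619 CPM and *Satb1* at 459 and 483 CPM. The MGE progenitor factor *Nkx2-1*, which cortex-bound interneurons switch off, was seen in 1.62% and 1.02% of the cells, and *Lhx8*, kept on in striatal and cholinergic MGE neurons, in 1.62% and 0.510%. *C1qa* of microglia was at 0 CPM in both embryos. *Slc17a7*, the vesicular glutamate transporter of cortical excitatory neurons, was at 0.575 and 0.604 CPM, against 29.8 and 26.0 CPM in excitatory-gated cells.

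**Figure D1:**
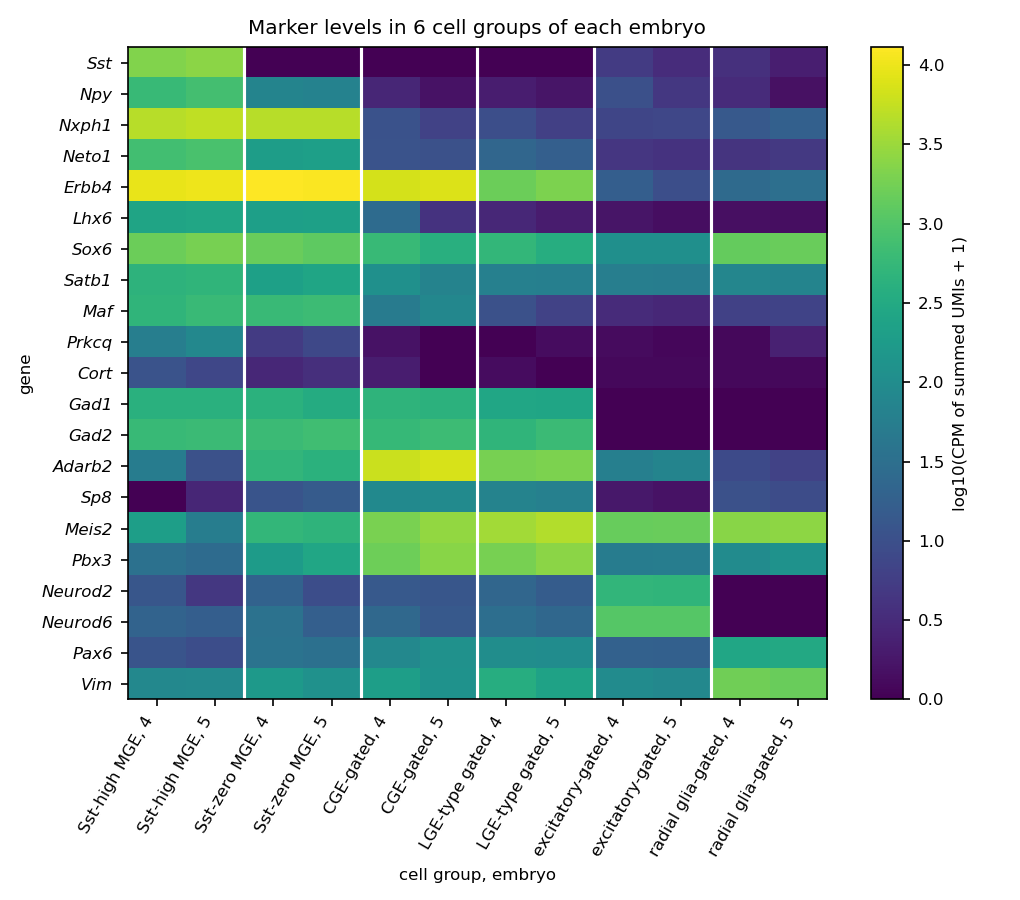
Levels of 21 marker genes (rows) in 6 cell groups of embryos 4 and 5 (columns), as log10 of CPM of the summed UMIs plus 1. Paired columns of an embryo group look alike. The Sst-high columns are bright for *Sst*, *Npy*, *Nxph1*, *Neto1* and *Erbb4* and darker than the CGE columns for *Adarb2* and *Sp8*, while *Gad1* and *Gad2* are similarly bright in the 4 GABAergic groups.

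The count of 3 *Sst* UMIs that admits a cell was rarely reached in radial glia-gated and excitatory-gated cells. Both of these gates ask for no *Gad1* or *Gad2* UMI, which partly leaves out cells that took up interneuron transcripts. The level of free transcripts in other cells was not measured. Of radial glia-gated cells, which should lack *Sst*, 22 of 643 and 11 of 817 had at least 1 *Sst* UMI and 0 had 3 or more. Of excitatory-gated cells, 1 of 5333 and 2 of 6052 reached 3. Of all kept cells with at least 3 *Sst* UMIs (234 and 233), 49 and 37 fell outside the gate, among them 22 and 19 that missed only the limit on *Neurod2* and *Neurod6*, and 11 and 2 that missed only that on *Nxph1*.

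The cells just inside and just outside the *Sst* threshold are described without a test. With 1 to 2 *Sst* UMIs (101 and 92 cells of the same gate, not members), *Npy* was at 108 and 120 CPM, and with 3 to 4 (41 and 46 cells, members) at 182 and 277 CPM. *Neto1* was at 442 and 439 CPM outside and at 830 and 688 CPM inside, and at 474 and 728 CPM in the next class of members, with 5 to 9 *Sst* UMIs. *Lhx6* was at 265 and 276 CPM outside and at 274 and 265 CPM inside, without a step.

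*Sst* itself spread widely among the members. The median was 10 and 10.5 UMIs per cell, the upper quartile 21 and 24.25, and the highest cell held 250 in embryo 4 and 200 in embryo 5. The top 10% of the cells held 50.1% and 44.6% of all *Sst* UMIs, whereas for the gate genes *Nxph1* and *Erbb4* this share lay between 24.8% and 26.4%. Along the *Sst* count, other genes took different courses. *Npy* went from 182 and 277 CPM at 3 to 4 *Sst* UMIs to 635 and 640 CPM at 10 to 29, and to 1448 and 1916 CPM in the 28 and 40 cells with 30 or more. *Prkcq* went from 14.7 and 26.5 CPM to 63.5 and 82.3 CPM and then to 123 and 144 CPM. *Erbb4* took the opposite course, from 10563 and 13770 CPM to 5309 and 5411 CPM in the cells with the most *Sst*. *Lhx6* (215 to 309 CPM) and *Gad2* (540 to 677 CPM) stayed within a narrow range over these 4 classes of *Sst* count, so the course of *Npy* and *Erbb4* was not shared by every gene of the lineage.

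**Figure D2:**
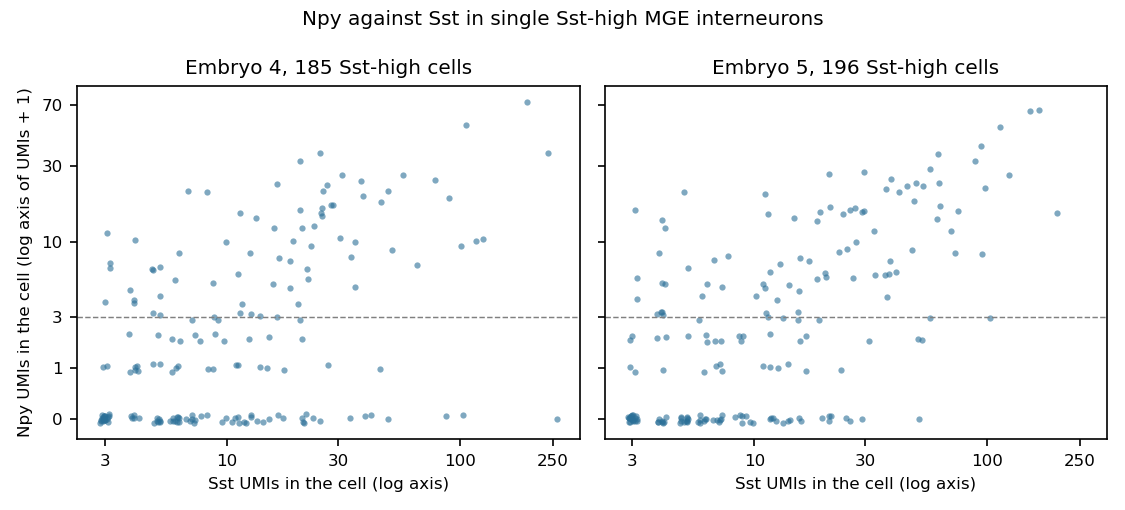
*Npy* UMIs (vertical, log axis of UMIs plus 1, points slightly spread) against *Sst* UMIs (horizontal, log axis) in each Sst-high cell of embryo 4 (185 cells) and embryo 5 (196 cells). The dashed line marks 3 *Npy* UMIs. Cells with 0 *Npy* UMIs (77 and 75) occur mostly at low *Sst* counts, and most cells with over 30 *Sst* UMIs lie above the line.

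The first comparison asked what else differs between MGE interneurons with and without *Sst*, since both groups pass the same gate apart from that gene. The Sst-zero group held 452 and 403 cells with no *Sst* UMI. In the Sst-high cells the peptide gene *Npy*, the kinase gene *Prkcq*, 9 of 31 tested glutamate receptor genes and 14 of 50 genes of synaptic adhesion were higher, whereas *Adarb2*, *Pbx3* and *Meis2* were lower. Of 11249 genes tested on summed counts with edgeR's quasi-likelihood test (Benjamini-Hochberg adjusted p under 0.05, n = 2 embryos), 287 were higher (2.55% of those tested) and 174 lower (1.55%). With the embryo as a block the counts were 472 and 362, including all 461 of the former. The groups did not overlap between embryos in any of the 461 calls, which was so for 47.0% of all tested genes.

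**Figure D3:**
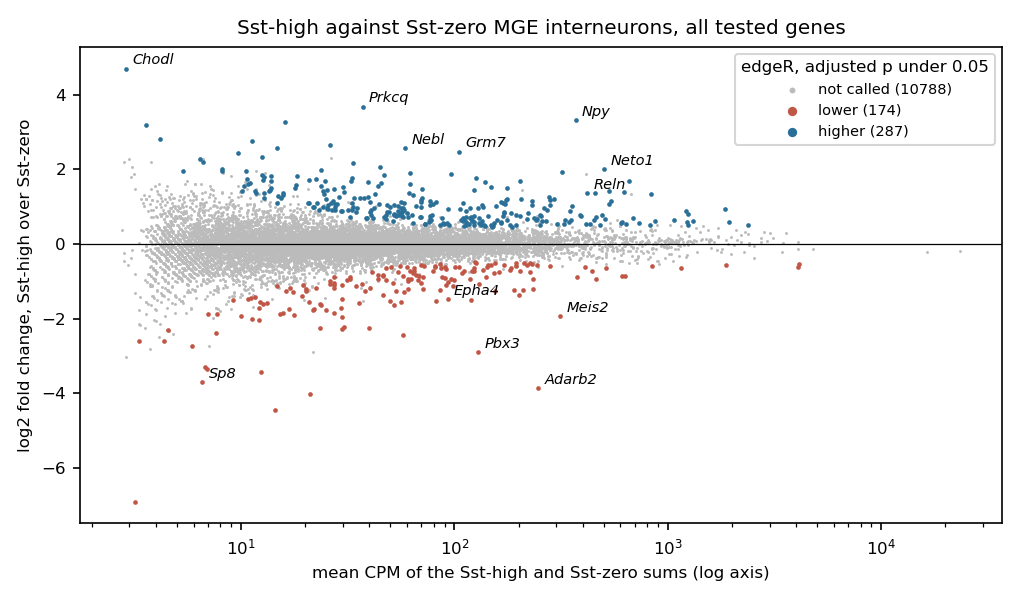
Log2 fold change of Sst-high over Sst-zero cells (vertical) against the mean CPM of the summed groups (horizontal, log axis), 1 point per tested gene, coloured by the edgeR call. The 287 higher genes (blue) include *Npy* and *Neto1* at high levels, and the 174 lower genes (red) include *Adarb2* and *Pbx3*.

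Peptide genes and the enzymes that process them came first. *Npy* was at 591 and 753 CPM in Sst-high and at 72.0 and 66.5 CPM in Sst-zero cells of embryos 4 and 5. The groups stood far apart, with a log2 fold change of 3.31 ± 0.16 (SE, edgeR adjusted p = 2.8e-06). *Cort*, which encodes the somatostatin relative cortistatin, was low in both, at 10.3 and 6.65 CPM against 1.91 and 2.53 CPM (1.95 ± 0.48, edgeR adjusted p = 0.046), and 5 of the alternative settings ended the call. Only 4 of the 18 listed neuropeptide genes passed the filter on low counts. *Cck*, the cholecystokinin gene, was one of the others that passed, and differed by -0.59 ± 0.20 on the log2 scale (edgeR adjusted p = 0.16). Of 14 tested genes of peptide processing and dense-core vesicles, 3 were higher and 1 lower, with a median log2 fold change of 0.24 beside 0.00 over all tested genes. *Pcsk2*, a convertase that cuts peptide precursors, was at 99.5 and 97.3 CPM against 42.1 and 42.6 CPM (1.24 ± 0.13, edgeR adjusted p = 0.00043). *Pcsk1n*, an inhibitor of such convertases, was higher by 0.92 ± 0.12 on the log2 scale (edgeR adjusted p = 0.0015). The lower member was *Cadps2*, a priming factor for dense-core vesicle release, at 72.4 and 58.6 CPM against 120 and 134 CPM (edgeR adjusted p = 0.0035).

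Signalling genes followed, and *Prkcq* had the largest fold change of the 12 higher genes named by rule. *Prkcq* (chromosome 2 from 11171905 to 11301226), which encodes protein kinase C theta, was at 56.9 and 81.0 CPM in Sst-high cells and at 4.14 and 6.87 CPM in Sst-zero cells. The log2 fold change was 3.68 ± 0.28 (edgeR adjusted p = 6.2e-05), and a *Prkcq* UMI was found in 23.8% and 32.7% of Sst-high cells against 0.156% and 0.367% of radial glia-gated cells. With each cell thinned to 3000 UMIs the Sst-high shares were 15.3% and 16.8%, and in Sst-zero cells 8 of 401 and 3 of 368 cells had a *Prkcq* UMI. *Ppp1r14c*, an inhibitor of protein phosphatase 1, was at 47.7 and 61.6 CPM against 7.97 and 17.3 CPM (edgeR adjusted p = 0.0021). *Nebl*, which encodes the actin-binding protein nebulette, was at 103 and 99.1 CPM against 20.1 and 14.1 CPM (edgeR adjusted p = 3.1e-05).

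Genes of glutamate receptors and their auxiliary subunits were next. Of 31 tested, 9 were higher and 0 lower, with a median log2 fold change of 0.39. *Neto1* was at 737 and 863 CPM in Sst-high and 196 and 213 CPM in Sst-zero cells (edgeR adjusted p = 3.1e-05). *Grik1*, which encodes a kainate receptor subunit, was at 841 and 1161 CPM against 271 and 363 CPM (1.69 ± 0.19, edgeR adjusted p = 0.00058). *Grm7*, a presynaptic metabotropic receptor, was at 178 in both embryos against 38.9 and 26.0 CPM (2.47 ± 0.16, edgeR adjusted p = 3.1e-05), and *Grin3a*, an NMDA receptor subunit, at 34.5 and 41.1 CPM against 7.33 and 12.3 CPM (edgeR adjusted p = 0.0021). *Gria3*, *Grm3*, *Grm5* and *Cacng3* were higher as well. When each cell was thinned to 3000 UMIs, 9 of the 27 genes tested were higher and 1 was lower.

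Ion channel and release genes came next. Of 31 tested potassium channel genes, 7 were higher and 0 lower, and of 25 sodium and calcium channel genes 5 were higher and 0 lower. *Kcnd2*, an A-type channel, was at 424 and 469 CPM against 246 and 252 CPM (0.87 ± 0.12, edgeR adjusted p = 0.0025). *Kcnip4*, a partner of such channels, was at 72.4 and 73.1 CPM against 24.9 and 15.9 CPM (edgeR adjusted p = 0.00046), but 42.9% and 40.5% of its UMIs in Sst-high cells came from 1 cell of each embryo. *Cacna1e*, an R-type calcium channel, was at 85.7 and 68.3 CPM against 39.2 and 32.9 CPM (edgeR adjusted p = 0.0026). Of 26 tested genes of the presynaptic release machinery, 7 were higher and 0 lower, with *Snap25* at 327 and 315 CPM against 216 and 213 CPM (0.61 ± 0.12, edgeR adjusted p = 0.015). With cells thinned to 3000 UMIs, 0 of the 24 release genes and 2 of the 23 potassium channel genes were called.

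Adhesion genes gave the longest list. Of 50 tested genes of synaptic adhesion, 14 were higher and 2 lower, with a median log2 fold change of 0.37. *Cntn1*, which encodes contactin 1, was at 184 and 207 CPM against 61.2 and 55.3 CPM (1.77 ± 0.13, edgeR adjusted p = 3.5e-05). *Elfn1*, which somatostatin interneurons use postsynaptically to recruit presynaptic metabotropic receptors, was at 101 and 106 CPM against 37.6 and 38.3 CPM (1.48 ± 0.13, edgeR adjusted p = 0.00019). *Cntn4* and *Cntnap5c* were the lower members. Of other named genes, *Lingo2*, a leucine-rich repeat membrane protein, was at 517 and 491 CPM against 168 and 104 CPM, and *Col19a1*, a collagen, at 66.1 and 77.9 CPM against 13.7 and 21.7 CPM. *Kctd8*, an auxiliary subunit of GABA-B receptors, was at 162 and 140 CPM against 48.1 and 35.4 CPM (edgeR adjusted p = 6.5e-05), and the long non-coding RNA *Snhg11* was at 108 and 87.0 CPM against 29.6 and 22.8 CPM (edgeR adjusted p = 0.00016).

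**Figure D4:**
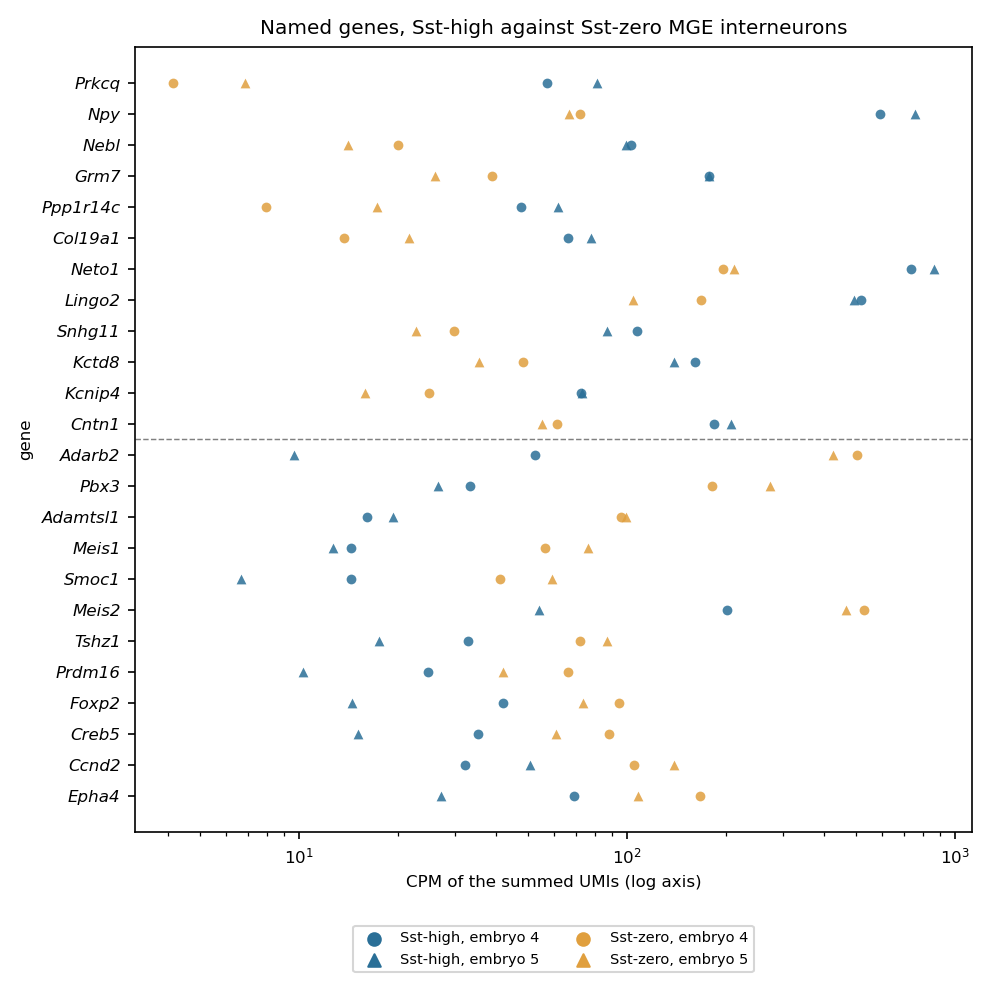
CPM (horizontal, log axis) of the 24 genes named by rule in Sst-high (blue) and Sst-zero (orange) cells of embryo 4 (circles) and embryo 5 (triangles). Above the dashed line are the 12 higher genes and below it the 12 lower ones. In every row both blue points lie on the same side of both orange points, with the gap widest for *Prkcq* and *Adarb2*.

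Guidance genes moved both ways. Of 48 tested, 3 were higher and 5 lower, with a median of 0.07. *Sema3a*, a secreted repellent, was at 283 and 333 CPM against 103 and 92.2 CPM (1.69 ± 0.13, edgeR adjusted p = 6.2e-05), *Sema6d* was higher by 1.38 ± 0.14 (edgeR adjusted p = 0.00041) and *Reln*, the glycoprotein reelin, by 1.37 ± 0.13 on the log2 scale (edgeR adjusted p = 0.00028). The class 3 semaphorin receptor *Nrp1* was at 47.7 and 38.1 CPM against 114 and 85.7 CPM (-1.19 ± 0.17, edgeR adjusted p = 0.0025), and *Nrp2* and the reelin adaptor *Dab1* were lower too. *Epha4*, a receptor of ephrins, was at 69.0 and 27.2 CPM against 167 and 108 CPM (-1.49 ± 0.29, edgeR adjusted p = 0.016), a call that DESeq2 did not make. *Efnb2*, which encodes the ligand ephrin-B2, a partner of EPHA4, was at 260.5 and 329 CPM in Sst-high and at 239 and 286 CPM in Sst-zero cells. These ranges overlapped, and the log2 fold change was 0.19 ± 0.15 (edgeR adjusted p = 0.60). Across the other groups *Efnb2* was at 241 CPM in excitatory-gated cells of both embryos and at 164 and 175 CPM in radial glia-gated cells.

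*Dnmt1*, which encodes the maintenance DNA methyltransferase, was at 54.6 and 48.9 CPM in Sst-high and 57.4 and 54.2 CPM in Sst-zero cells. The log2 fold change was -0.08 ± 0.15 (edgeR adjusted p = 0.85). Of 11 tested genes that write, erase or read DNA methylation, 0 were called by edgeR, and their log2 fold changes ran from -0.61 to -0.02. Radial glia-gated cells held *Dnmt1* at 89.4 and 94.6 CPM.

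In a list of lineage transcription factors, which also holds genes of CGE cells such as *Sp8*, *Prox1* and *Nr2f2*, 5 of 26 tested genes were higher and 5 lower. *Satb1*, needed for the maturation of somatostatin interneurons, was at 459 and 483 CPM against 220 and 258 CPM (1.01 ± 0.13, edgeR adjusted p = 0.0016). *Npas1*, *Nr2f2* and *Bcl11a* were higher as well. The pan-lineage factors were not called: *Lhx6* differed by 0.33 ± 0.12 (edgeR adjusted p = 0.19), *Sox6* by 0.39 ± 0.14 (edgeR adjusted p = 0.18) and *Maf* by -0.17 ± 0.14 (edgeR adjusted p = 0.63). Of the lower members, *Sp9* was at 106 and 89.4 CPM against 189 and 178 CPM, *Zeb2* at 1528 and 1464 CPM against 2081 and 2422 CPM, and *Zfhx3* and *Etv1* had log2 fold changes of -1.78 and -1.21. *Sp8*, found in both the CGE-gated and the LGE-type gated cells described below, had 0 and 3 UMIs in Sst-high cells and 33 and 39 in Sst-zero cells.

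Markers of other lineages were among the genes furthest below the Sst-zero cells. *Adarb2*, an RNA-editing enzyme relative and the usual marker of CGE interneurons, was at 52.3 and 9.67 CPM against 501 and 426 CPM (-3.86 ± 0.38, edgeR adjusted p = 0.00031). *Pbx3* was at 33.3 and 26.6 CPM against 182 and 274 CPM (-2.90 ± 0.23, edgeR adjusted p = 6.2e-05). *Meis2* was at 202 and 53.8 CPM against 529 and 467 CPM (-1.93 ± 0.37, edgeR adjusted p = 0.015), with the Sst-high embryos themselves unlike each other. The transcription factor genes *Meis1*, *Tshz1*, *Prdm16*, *Foxp2* and *Creb5* were lower as well, with log2 fold changes from -2.25 to -1.54. Of 11 tested LGE-type and striatal markers 7 were lower and 0 higher, and of 10 tested CGE markers 4 were lower and 3 higher (*Cnr1*, *Npas1* and *Nr2f2*), with medians of -1.21 and -1.27.

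The comparator held more cells that carried CGE or LGE-type genes. At least 5 *Adarb2* UMIs, or 5 *Meis2* with 3 *Pbx3* UMIs, were found in 47 and 37 of the Sst-zero cells and in 7 and 0 of the Sst-high cells. Without these cells 293 genes were higher and 151 lower by edgeR, 366 of them shared in direction with the former calls. *Adarb2*, *Meis2* and *Pbx3* chose the cells left out and were not tested in this run, although they were among the former lower calls. Of the LGE-type list 2 of 7 tested genes were then lower, and of the CGE list 1 of 8. These counts are over fewer genes than before, and a loss of such calls is partly built into leaving out those cells. *Foxp2* and *Creb5* were no longer called.

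Some genes of progenitor cells were also lower in Sst-high cells. *Ccnd2*, a cyclin of progenitors, was at 32.2 and 50.8 CPM against 105 and 139 CPM (-1.53 ± 0.21, edgeR adjusted p = 0.0021), a call that was lost in thinned cells. Of 14 tested radial glia markers 5 were lower and 0 higher, among them *Pax6* at 10.9 and 8.46 CPM against 35.7 and 31.8 CPM and *Vim* at 81.1 and 84.6 CPM against 161 and 117 CPM. Without the cells that carried CGE or LGE-type genes, 0 of 13 were called by edgeR, and in thinned cells 1 of 12. On the other side, 5 of 21 tested microtubule and newborn neuron genes were higher (*Stmn2*, *Stmn4*, *Mllt11*, *Mapt* and *Gap43*) and 1 lower. *Gap43*, a growth cone protein, was at 241 and 218 CPM against 117 and 99.8 CPM (1.11 ± 0.12, edgeR adjusted p = 0.00050). A pair of genes for secreted matrix proteins completed the named set, *Adamtsl1* at 16.1 and 19.3 CPM against 95.6 and 99.4 CPM and *Smoc1* at 14.4 and 6.65 CPM against 41.1 and 59.3 CPM.

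Of the other lists, 3 of 20 tested genes of GABA synthesis, transport and receptors were higher (*Gabra2*, *Gabra3* and *Gabrg1*) and 1 lower (*Gabrg3*), and of 11 immediate early genes 1 was higher, *Fos*. Of 14 excitatory neuron markers 2 were lower (*Lhx2* and *Sox5*), and of 5 pallidal and cholinergic MGE markers 1, *Zic1*. None of 2 microglia, 2 vascular, 5 erythroid and 2 oligodendrocyte precursor markers that passed the filter was called by edgeR.

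Genes that passed the test were long ones in both directions. The median genomic length was 142 kb for the 284 higher genes with a RefSeq length and 161 kb for the 167 lower ones, beside 28.1 kb over 10804 tested genes. Depth per cell differed between the groups as given above, and its part in the calls was not tested. With each cell thinned to 3000 UMIs, which leaves fewer reads and 8741 tested genes, 142 genes were higher and 76 lower by edgeR. Of these 218, 203 had been called in the same direction with all UMIs.

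Markers of adult somatostatin and parvalbumin interneuron subtypes were detected to unequal degrees, and of 15 tested 8 were higher than in Sst-zero cells and 2 lower. *Calb1*, the calcium-binding protein calbindin, was at 96.6 and 88.8 CPM against 50.7 and 43.4 CPM in Sst-zero cells (edgeR adjusted p = 0.0019), and was found in 29.2% and 21.4% of Sst-high cells against 0.778% and 0.367% of radial glia-gated cells. *Reln* was found in 52.4% and 59.2% of Sst-high cells (7.78% and 4.41% of radial glia-gated cells), *Elfn1* in 48.1% and 46.9% (0.467% and 0.367%), and *Cort* in 7.03% and 4.59% (0.311% and 0.245%). With cells thinned to 3000 UMIs these Sst-high shares were 44.3% and 50% for *Reln*, 23.0% and 27.0% for *Elfn1* and 2.19% and 2.04% for *Cort*. *Calb2*, the calretinin gene, had 3 and 1 UMIs in Sst-high cells and 40 and 35 in Sst-zero cells, where at most 45.7% came from 1 cell. *Chodl*, the marker of long-range projecting somatostatin cells, had 8 and 11 UMIs in Sst-high cells and 1 and 0 in Sst-zero cells, a ratio of 33.1 with a counting interval of 5.25 to 1373 at 95%. Its UMIs lay in 5 and 4 Sst-high cells, with 63.6% of those in embryo 5 from 1 cell. Its share of cells (2.70% and 2.04%) was close to that of radial glia-gated cells (1.87% and 2.08%), so this share did not set the Sst-high cells apart. In thinned cells the shares were 1.64% and 1.02% against 0.467% and 0.743%. Whether the *Chodl* UMIs of radial glia-gated cells are free transcripts was not tested. By *Sst* count, *Chodl* was at 20.5 and 28.9 CPM in the cells with 30 or more *Sst* UMIs. In the classes of 3 to 29 *Sst* UMIs it was at 0 to 2.94 CPM. *Pvalb*, *Vip* and *Crh* were found in 0 of 185 and 0 of 196 Sst-high cells, which allows shares of up to 1.62% and 1.53% for cells with a UMI and sets no limit on cells that express these genes. These intervals and limits cover counting error only.

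The second comparison set Sst-high cells against CGE-gated cells (234 and 244 cells with at least 5 *Adarb2* and 5 *Erbb4* UMIs, at least 1 of *Gad1* and *Gad2* together, no *Sst*, at most 1 *Nxph1* and at most 3 *Neurod2* and *Neurod6* UMIs). These cells carried LGE-type genes too, with *Meis2* at 1963 and 2753 CPM beside *Prox1* at 67.3 and 69.1 CPM, and of 11 tested LGE-type and striatal markers 10 were lower in Sst-high cells and 0 higher. The neurexophilin *Nxph2*, the homeobox gene *Mkx* and *Npy* led the genes that were higher in Sst-high cells, and *Sp8*, *Nr3c2* and *Pbx3* those that were lower. Of 10712 tested genes, edgeR called 622 higher in Sst-high cells (5.81%) and 761 lower (7.1%). Cells that passed both the CGE and the LGE-type gate numbered 85 and 116, and without them 403 genes were higher and 420 lower.

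*Nxph2*, a paralogue of the gate gene *Nxph1*, had 323 and 488 UMIs in Sst-high cells and 0 in CGE-gated cells of both embryos, at least 270-fold higher against 3 counts over the group. *Mkx* had 137 and 160 UMIs against 0, at least 98.8-fold higher on the same scale. *Npy* was at 1.74 and 0.601 CPM in CGE-gated cells, far under the 591 and 753 CPM of Sst-high cells (edgeR adjusted p = 1.3e-09). *Prkcq* had 99 and 134 UMIs against 1 and 0, and *Thbs1*, the matrix protein thrombospondin 1, 79 and 99 against 1 and 1. *Neto1* was at 10.5 and 9.61 CPM in CGE-gated cells, a log2 fold change of 6.33 ± 0.19 (edgeR adjusted p = 1.3e-09).

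*Lhx6* was at 26.7 and 3.004 CPM in the CGE-gated cells (4.15 ± 0.37, edgeR adjusted p = 6.8e-06), and *Maf*, *Satb1* and *Sox6* were higher in Sst-high cells as well, among 10 higher and 8 lower of 26 tested genes in a list of lineage transcription factors that also holds genes of CGE cells. Of the lower ones, *Sp8* had 0 and 3 UMIs in Sst-high cells against 154 and 154, and *Prox1* was at 1.73 and 5.44 CPM against 67.3 and 69.1 CPM (edgeR adjusted p = 1.7e-06). *Nr3c2*, the mineralocorticoid receptor gene, was at 0.575 and 4.83 CPM against 176 and 196 CPM, and *Sorcs3*, a sorting receptor, at 19.5 and 6.65 CPM against 338 and 445 CPM. *Pbx3* was at 1587 and 2375 CPM and *Foxp2* at 709 and 1242 CPM in the CGE-gated cells, and without the cells of both gates *Foxp2* was not called. The predicted gene *C79798* was at 2.30 and 0.604 CPM against 91.2 and 84.1 CPM.

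Receptor genes differed too. Of 30 tested glutamate receptor genes 17 were higher in Sst-high cells and 3 lower, with a median log2 fold change of 0.70 beside -0.01 over all tested genes. *Gria4*, an AMPA receptor subunit, was at 2278 and 2535 CPM against 259.5 and 311 CPM (edgeR adjusted p = 2.8e-08), and *Grm8* was the reverse, at 19.0 and 18.7 CPM against 323 and 446 CPM (edgeR adjusted p = 2.7e-08). Peptide receptors split: *Npy2r* was at 13.8 and 16.9 CPM against 1.74 and 1.20 CPM (edgeR adjusted p = 0.00064), and *Sstr2*, a somatostatin receptor, at 1.15 and 3.02 CPM against 11.6 and 18.0 CPM (edgeR adjusted p = 0.0038). Of 46 tested guidance genes 12 were higher and 20 lower. *Ackr3*, the scavenging receptor for the chemokine CXCL12, was at 243 and 213 CPM against 7.55 and 5.41 CPM (5.15 ± 0.20, edgeR adjusted p = 8.5e-09), while its signalling partner *Cxcr4* was at 34.5 and 22.4 CPM against 9.87 and 11.4 CPM (edgeR adjusted p = 0.0075), a call lost in thinned cells. The Slit receptor *Robo1* was at 188 and 197 CPM against 1096 and 1031 CPM (-2.44 ± 0.13, edgeR adjusted p = 7.3e-08). *Efnb2* was at 187 and 222 CPM in CGE-gated cells, a log2 fold change of 0.56 ± 0.15 (edgeR adjusted p = 0.027) that DESeq2 and the thinned cells did not call. *Dnmt1* was at 54.0 and 58.3 CPM and not called.

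The third comparison took LGE-type gated neurons, 282 and 356 cells outside the MGE gate. They had at least 5 *Meis2* and 3 *Pbx3* UMIs, at least 1 of *Gad1* and *Gad2* together and no *Sst*. At most 1 *Nxph1* and at most 3 *Neurod2* and *Neurod6* UMIs were allowed. This comparison gave 1744 genes higher in Sst-high cells (15.1% of 11558 tested) and 1916 lower (16.6%) by edgeR. The LGE-type gate also held cycling cells. *Top2a*, a gene of dividing cells, was at 535 and 630 CPM against 37.9 and 27.2 CPM in Sst-high cells. Of 15 tested radial glia markers 13 were lower in Sst-high cells. Excitatory neuron markers were in the gate too, and of 15 tested 13 were lower in Sst-high cells and 0 higher. Among these, *Eomes* UMIs were found in 43 and 35 LGE-type gated cells and *Neurog2* UMIs in 41 and 32. The part of this mixture in the other calls was not tested.

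*Mkx* had 0 UMIs in the LGE-type cells of both embryos, which put the Sst-high cells at least 158-fold higher. *Dgkg*, a diacylglycerol kinase gene, was at 251 and 314 CPM in Sst-high cells against 2.63 and 0.361 CPM (7.63 ± 0.32, edgeR adjusted p = 4.1e-07), and *Lhx6* was at 1.88 and 1.08 CPM in LGE-type cells (7.52 ± 0.22, edgeR adjusted p = 7.1e-08). *Npy* had 3 and 2 UMIs in the LGE-type cells, *Nxph2* 2 and 0, and *Prkcq* 0 and 1. On the other side, *Ebf1*, a factor of striatal projection neurons, was at 0.575 and 1.81 CPM against 472 and 400.5 CPM (-8.36 ± 0.27, edgeR adjusted p = 8.0e-08). *Six3*, another striatal factor, had 2 and 0 UMIs against 151 and 150, and *Sp8* 0 and 3 against 183 and 172. *Adarb2* was at 1878 and 1977 CPM in LGE-type cells (-5.84 ± 0.44, edgeR adjusted p = 8.9e-06), *C79798* at 104 and 98.9 CPM, and the replication-dependent histone gene *Hist1h1b* at 94.7 and 73.2 CPM against 2.30 and 0.604 CPM in Sst-high cells.

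Many genes of GABA signalling, transmitter release and ion channels were higher than in LGE-type cells, which included the cycling cells described above. The part of those cells in these calls was not tested. Of 21 tested genes of GABA synthesis, transport and receptors 13 were higher and 1 lower, with a median log2 fold change of 1.08. *Slc32a1*, the vesicular GABA transporter, was at 88.5 and 63.4 CPM against 38.7 and 34.3 CPM (1.16 ± 0.18, edgeR adjusted p = 0.0011), and *Slc12a5*, the chloride extruder of mature neurons, at 28.7 and 27.2 CPM against 11.7 and 12.3 CPM (edgeR adjusted p = 0.0022). Of 28 tested release genes 18 were higher and 2 lower, and of 24 sodium and calcium channel genes 16 and 2. Of 11 DNA methylation genes 4 were lower and 1 higher, among the former *Uhrf1*, the partner of DNMT1 at replication forks, at 8.62 and 5.44 CPM against 41.0 and 46.9 CPM (edgeR adjusted p = 9.1e-05) and *Dnmt1* at 54.6 and 48.9 CPM against 91.3 and 80.1 CPM (-0.62 ± 0.14, edgeR adjusted p = 0.0089). DESeq2 and the thinned cells did not call *Dnmt1*.

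The last comparison stayed within the Sst-high cells and asked which genes go with *Npy*. Cells with at least 3 *Npy* UMIs made up 41.1% and 45.9% of them (76 and 90 cells) and cells with none 41.6% and 38.3% (77 and 75 cells). The former had more *Sst*, with a median of 19 and 21.5 UMIs per cell against 6 and 5, and less *Erbb4* (7136 and 6730 CPM against 10921 and 13609 CPM). *Npy*-high cells were also deeper, with a median of 9111.5 and 7856 UMIs per cell against 8203 and 6985. The part of depth in the calls was not tested. *Npy*-high cells carried more of *Reln*, *Grin3a* and *Gap43*, and *Npy*-zero cells more of *Cadps2*, *Cntnap4* and *Gabrg3*. In thinned cells *Reln* and *Grin3a* were not called. Of 8281 tested genes edgeR called 36 higher (0.435%) and 32 lower (0.386%). With the embryo as a block the counts were 88 and 82, and with cells thinned to 3000 UMIs 3 and 11.

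Of the higher genes, *Prkcq* was at 102 and 119 CPM against 23.1 and 36.1 CPM (1.91 ± 0.26, edgeR adjusted p = 0.0014). *Grin3a* was at 60.4 and 68.1 CPM against 11.5 and 15.5 CPM (2.25 ± 0.33, edgeR adjusted p = 0.0021), and *Reln* at 820 and 889 CPM against 317 and 437 CPM (1.18 ± 0.16, edgeR adjusted p = 0.0014). *Gap43* was at 365 and 329 CPM against 151 and 105 CPM and *Bcl11a*, a transcription factor, at 616 and 661 CPM against 324 and 352 CPM (0.91 ± 0.14, edgeR adjusted p = 0.0028). Some calls rested on few cells. *Col25a1*, a membrane collagen, had the largest fold change among those named, with 79.2 and 89.1 CPM against 20.2 and 3.44 CPM, and 55.9% of its UMIs in the *Npy*-high cells of embryo 4 came from 1 cell. *Cdh9*, a type II cadherin, *Car10*, a carbonic anhydrase-related protein, and *Hs3st4*, a heparan sulfate sulfotransferase, had between 29.5% and 30.8% of their UMIs in 1 cell of an embryo. For *Kcnip4* this share was 57.6% and for *Ntng1* 70%, and of the higher genes described here thinned cells kept the calls of *Prkcq*, *Gap43* and *Bcl11a* only.

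Of the lower genes, *Cadps2* was at 17.4 and 7.42 CPM in *Npy*-high and at 143 and 139 CPM in *Npy*-zero cells (-3.51 ± 0.29, edgeR adjusted p = 2.5e-05), where 20 and 16 cells had it. *Cntnap4*, a presynaptic adhesion protein of interneurons, was at 223 and 188 CPM against 647 and 665 CPM (-1.68 ± 0.15, edgeR adjusted p = 2.5e-05). *Gabrg3*, a GABA-A receptor subunit, was at 77.9 and 59.4 CPM against 212 and 321 CPM (-1.96 ± 0.22, edgeR adjusted p = 0.00039), and *Sorcs1*, a sorting receptor, at 36.2 and 45.8 CPM against 189 and 168 CPM (edgeR adjusted p = 6.8e-05). *Pdzrn4* was at 25.5 and 13.6 CPM against 87.9 and 99.7 CPM. *Ppm1h*, a protein phosphatase gene, was at 21.5 and 17.3 CPM against 77.8 and 75.6 CPM. *Agbl4*, a tubulin-modifying carboxypeptidase, was at 21.5 and 22.3 CPM against 104 and 49.8 CPM, and 5 alternative settings ended its call. The transcription factor genes *Zeb2*, *Npas3* and *Mef2c* and the ephrin receptors *Epha3* and *Epha5* were lower too, with log2 fold changes from -1.08 to -0.66. Markers of other cell types were among the calls. *Adarb2* was lower, at 6.71 and 6.19 CPM against 82.1 and 17.2 CPM (-2.96 ± 0.63, edgeR adjusted p = 0.036), as was *Pbx3*, at 24.2 and 12.4 CPM against 51.9 and 58.4 CPM (-1.60 ± 0.34, edgeR adjusted p = 0.039). In embryo 4, 1 cell held 57.9% of the *Adarb2* and 61.1% of the *Pbx3* UMIs of the *Npy*-zero cells. *Col4a1*, a collagen of blood vessels, was higher, at 21.5 and 61.9 CPM against 2.88 and 1.72 CPM (4.06 ± 0.71, edgeR adjusted p = 0.0075), with 60% of its UMIs in the *Npy*-high cells of embryo 5 in 1 cell. The part of such cells in the other calls was not tested.

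**Figure D5:**
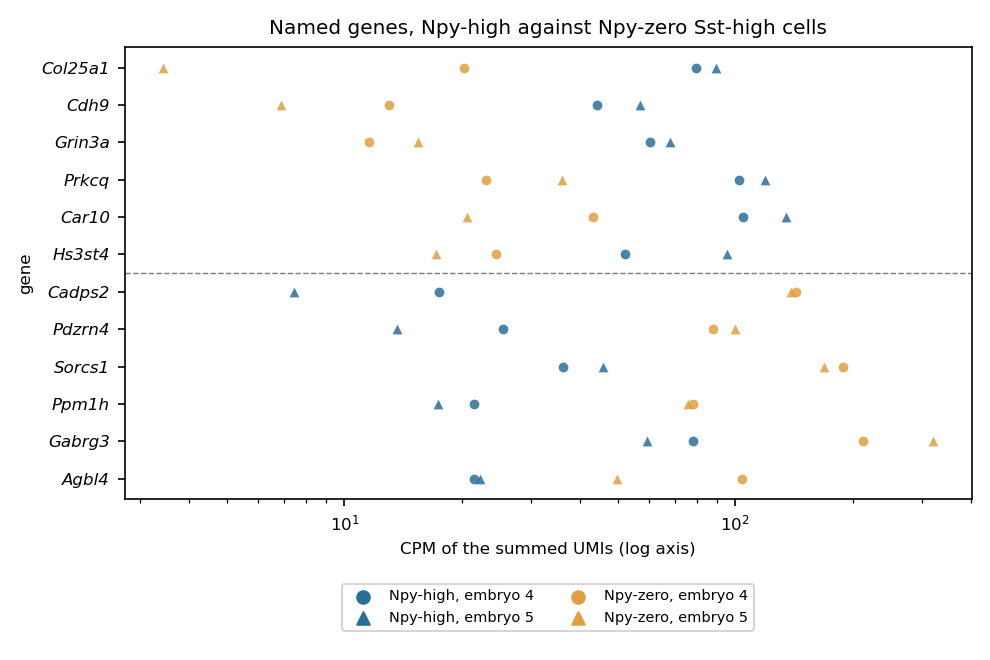
CPM (horizontal, log axis) of the 12 genes named by rule in *Npy*-high (blue) and *Npy*-zero (orange) cells among the Sst-high MGE interneurons, with embryo 4 as circles and embryo 5 as triangles. The 6 genes above the dashed line were higher in *Npy*-high cells and the 6 below it lower. The orange points of *Cadps2* lie at 143 and 139 CPM and the blue ones at 17.4 and 7.42 CPM, the widest gap below the line.

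*Efnb2* and *Dnmt1* did not pass the test within the Sst-high cells. *Efnb2* was at 286 and 350 CPM in *Npy*-high and 226 and 321 CPM in *Npy*-zero cells (0.22 ± 0.18, edgeR adjusted p = 0.87), and *Dnmt1* at 60.4 and 45.8 CPM against 51.9 and 60.1 CPM (edgeR adjusted p = 0.98). In both genes the ranges of the groups overlapped. *Calb1*, at 111 and 105 CPM against 77.8 and 75.6 CPM, and *Grm7*, at 221 and 261 CPM against 183 and 79.1 CPM, were higher in *Npy*-high sums of both embryos without passing the test (edgeR adjusted p = 0.48 and 0.18).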

How the data were processed

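The authors made single-cell 3′ v3.1 libraries and deposited unnormalized UMI counts in 1 matrix per embryo, over 32285 genes. The submitters' notes name Cell Ranger 7.0.0 and mm10, whereas the matrix headers give Cell Ranger 7.1.0. Whether intron reads were counted is not given in the sources used here.

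Barcodes were kept from 1000 detected genes upwards if no more than 10% of their UMIs were mitochondrial. Cells were gated by UMIs as described and summed per embryo and group (n = 2). Doublets were scored against artificial cell pairs and kept. Radial glia-gated cells had a UMI each of *Sox2*, *Pax6* and *Slc1a3* and none of the *Gad* and *Neurod* gate genes, and excitatory-gated cells at least 5 of *Neurod2* and *Neurod6* and none of *Gad1*, *Gad2* and *Sox2*. Sums were fitted with edgeR 4.0.16 in R 4.3.3 (TMM, filterByExpr, quasi-likelihood test, two-sided, Benjamini-Hochberg over all tested genes, gate genes apart), a script first tested on simulated data. SEs were derived from the fold change and its F statistic. The 4 sums of a comparison come from 2 animals, so p-values measure the spread of these sums only. Sums with the same number come from the same animal and are paired by it, although their deviations from the group means correlated weakly across genes (0.157, 0.102, 0.192 and 0.0247 in the order of the comparisons).

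Members, 26 gene lists and tests were chosen with earlier results of these data known. Named genes were called, reached 50 CPM on average in the higher group, had 1 sign in both embryos and led by fold change (12 each way in the first comparison, 6 in the others), Gm, Rik and mitochondrial names passed over. Called list members and *Dnmt1*, *Efnb2* and *Epha4* were added. Alternatives were DESeq2 1.42.0, its size factors, no filter, the embryo as a block, 1 embryo alone, thinning to 3000 UMIs, doublets left out, other limits of the gates, and 1 fit over 4 groups. Leaving out cells with CGE or LGE-type genes, cells of both gates or shared barcodes was chosen after seeing the data. Python 3.11.15 was used for sums. Promoter windows are from RefSeq. Some genes are not reported here.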

Additional observations from a re-analysis of the deposited data

Results flagged for a closer look

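*Sst* UMIs also occurred in barcodes that the comparisons do not use. Of the 1946 barcodes of embryo 4 that did not pass the limits on detected genes and mitochondrial share, 13 held at least 3 *Sst* UMIs, and of the 821 such barcodes of embryo 5 the number was 6. They were flagged as a signal outside the cells analysed, where radial glia-gated cells with at least 3 *Sst* UMIs numbered 0 in both embryos.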

How the results depend on the processing

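The share of Sst-high cells moved by less than its counting interval under every alternative run (1.70% to 1.81%). For Sst-high against Sst-zero cells (461 calls), DESeq2 gave 251 calls, no filter 930 (52.7% higher, against 62.3% with it), thinning 218 and an *Sst* limit of 10 UMIs 703. Against CGE-gated cells (1383 calls) DESeq2 gave 705, thinning 784 and leaving out cells of both other gates 823. Against LGE-type cells (3660 calls) DESeq2 gave 2068, no filter 2278 and thinning 1997. For *Npy*-high against *Npy*-zero cells (68 calls) DESeq2 gave 41, no filter 229, thinning 14 (21.4% higher, against 52.9%) and an *Npy* limit of 1 UMI 31. Apart from the replicate block, the other alternatives run stayed within 1.5 times the calls. Thinning tests fewer genes and fewer reads, and for the other settings the cause was not tested.

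The replicate block gave 834 calls in the first comparison and 170 in the last, and moved the others by less than 1.5 times (1865 and 4416). No call of the first, second or last comparison was lost under it, and 1 of the 3660 against LGE-type cells was.

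Without cells of both other gates the log2 fold change changed sign against CGE-gated cells for *Cacna2d1* (0.040), *Cntn4* (0.47), *Epha5* (-0.061), *Etv1* (0.73), *Il1rapl1* (0.20), *Kcnh5* (0.15) and *Tle4* (0.41), and against LGE-type cells for *Il1rapl2* (0.32) and *Kcnd2* (0.41). With 1 embryo alone no count of calls can be given, since 1 sum per group is left. The change of *Hbb-bs* against LGE-type cells then lay between -0.021 (without embryo 5) and 3.03 (without embryo 4), and 80.3% or more of the UMIs of *Hbb-bs* and *Hba-a2* in Sst-high cells of embryo 5 came from 1 cell. Genes of few UMIs, such as *Cort* and *Chodl*, are limited by depth.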

Other observations

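Summed together, the cells that held *Sst* outside the gate carried transcripts of both neuron classes, which does not show that single cells did. The 49 and 37 kept cells with at least 3 *Sst* UMIs that failed another limit had *Gad2*, which makes GABA, at 317 and 321 CPM and *Neurod6*, a factor of excitatory cortical neurons, at 369 and 461 CPM. *Lhx6* was at 87.2 and 93.9 CPM and *Npy* at 311 and 285 CPM, under the levels of the Sst-high cells (248 and 276 CPM, and 591 and 753 CPM). Since the limits on these genes chose the cells, the values are a description.

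*Grm7* and *Cntnap4* followed the *Sst* count of single cells differently. *Grm7* was at 543 and 467 CPM in the cells with 30 or more *Sst* UMIs and at 8.83 to 137 CPM in the classes of 3 to 29 UMIs. *Cntnap4* was at 197 to 603 CPM over these 4 classes with no common order in the embryos, although it differed between *Npy*-high and *Npy*-zero cells.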
